A study of Mus musculus with 12 samples.

Results

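Intronic distal regions are stretches of open chromatin that lie inside the introns of protein-coding genes and away from any transcript start. They numbered 22841 of the 70945 accessible regions found in 12 ATAC-seq libraries of mouse hematopoietic stem cells (HSCs). ATAC-seq maps open DNA through the places where a transposase inserts sequencing adapters, and a summit is the point of highest signal in a peak. To find the members, summits with a score of at least 3 on chromosomes 1 to 19 and X were taken from the 12 lists, windows of 250 bp on each side were merged over the lists, and each region was placed at its highest-scoring summit. As score the lists carry the −log10 of each summit's q-value from the peak caller. A region was a member when that position was more than 1 kb from every transcript start of GENCODE M21, inside a protein-coding gene and outside all exons. Scores entered through the cutoff and the choice of summit, and how a region changed between groups was not used.

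The libraries fell into 4 groups of 3: wild-type (WT) and Mlkl-/- C57BL/6 mice at 3 months of age (young) and at 18 months (aged). Mlkl encodes the pseudokinase that carries out necroptosis, a form of cell death. HSCs were sorted from bone marrow by surface markers, all on the same day, and each library was a pool of several animals, 6 mice for a young library and 3 for an aged one, so a library does not show the spread between single mice. The labels give no treatment for any group and do not give the sex of the mice.

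Introns hold many of the enhancers of mammalian genomes, which are stretches of DNA bound by transcription factors that raise transcription from a start elsewhere. An intronic enhancer often acts on the gene that holds it, but it can also act on a neighbour, so the host gene names a place and not a target. In HSCs such elements are known for binding RUNX, ETS, GATA, SCL and MEIS family factors.

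The sequences that follow show 151 bases centred on the positions of named regions, read from the mm10 reference (GRCm38) and given 5′ to 3′ on the plus strand. Capitals mark matches to 11 motifs that were searched on both strands. The motif of AP-1, the dimers of FOS and JUN proteins, was searched as TGANTCA. ETS factors such as PU.1 and ERG were searched as AGGAAGT, and RUNX factors, the core-binding factors of blood, as TGTGGTT. The letters for GATA factors of stem and erythroid cells were AGATAAG. For the E-box bound by SCL they were CAGATGG and for the MEIS homeodomain proteins TGACAGC. The letters for CTCF, an organiser of chromatin loops, were AGGGGGC. Interferon regulatory factors (IRF) were searched as AACTGAAA, NF-kB as GGGANTTTC and C/EBP as TTGCNNAAT. The GC-rich promoter motif of SP and KLF proteins was searched as GGGCGGG. The first set were regions higher in aged HSCs, chosen for the size of the change or for a host gene known in HSC biology.
Prim2 intron 7 (chr1:33625022-33625172, plus strand): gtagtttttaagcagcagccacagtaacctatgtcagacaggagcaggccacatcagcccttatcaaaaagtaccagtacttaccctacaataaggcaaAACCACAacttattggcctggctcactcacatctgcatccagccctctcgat
Ros1 intron 17 (chr10:52133537-52133687, plus strand): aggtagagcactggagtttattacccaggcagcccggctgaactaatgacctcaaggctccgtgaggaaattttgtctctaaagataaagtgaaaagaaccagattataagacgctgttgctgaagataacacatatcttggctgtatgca
Msi2 intron 5 (chr11:88687138-88687288, plus strand): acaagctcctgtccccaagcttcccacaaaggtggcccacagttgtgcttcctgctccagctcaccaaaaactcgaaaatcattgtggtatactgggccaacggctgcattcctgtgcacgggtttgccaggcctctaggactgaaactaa
Lama2 intron 13 (chr10:27265965-27266115, plus strand): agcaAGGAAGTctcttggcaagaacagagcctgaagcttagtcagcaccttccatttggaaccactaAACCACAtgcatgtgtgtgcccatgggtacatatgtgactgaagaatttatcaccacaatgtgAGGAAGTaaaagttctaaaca
Runx1 intron 5 (chr16:92644786-92644936, plus strand): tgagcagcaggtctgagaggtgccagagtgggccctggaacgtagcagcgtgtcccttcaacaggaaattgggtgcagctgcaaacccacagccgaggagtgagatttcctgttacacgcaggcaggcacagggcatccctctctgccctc
Ptprk intron 13 (chr10:28518432-28518582, plus strand): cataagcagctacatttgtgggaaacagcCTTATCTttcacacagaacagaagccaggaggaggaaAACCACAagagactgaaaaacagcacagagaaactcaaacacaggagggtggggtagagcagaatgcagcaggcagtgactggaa

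The second set were lower in aged HSCs. Hmga2 intron 3 held AP-1 and C/EBP letters, Nfia intron 7 held RUNX and ETS letters and Foxp1 intron 2 held ETS letters on the minus strand.
Hmga2 intron 3 (chr10:120422137-120422287, plus strand): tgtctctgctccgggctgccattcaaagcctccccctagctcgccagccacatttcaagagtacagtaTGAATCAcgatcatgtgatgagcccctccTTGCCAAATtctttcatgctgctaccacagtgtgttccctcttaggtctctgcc
C2cd5 intron 10 (chr6:143057444-143057594, plus strand): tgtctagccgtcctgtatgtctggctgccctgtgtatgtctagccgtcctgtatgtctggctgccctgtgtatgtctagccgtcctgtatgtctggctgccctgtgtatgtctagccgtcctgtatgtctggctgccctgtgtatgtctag
Foxp1 intron 2 (chr6:99241725-99241875, plus strand): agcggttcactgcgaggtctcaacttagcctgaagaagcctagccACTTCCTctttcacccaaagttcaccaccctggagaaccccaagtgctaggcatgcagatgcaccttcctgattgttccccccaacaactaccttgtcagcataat
Nfia intron 7 (chr4:98056766-98056916, plus strand): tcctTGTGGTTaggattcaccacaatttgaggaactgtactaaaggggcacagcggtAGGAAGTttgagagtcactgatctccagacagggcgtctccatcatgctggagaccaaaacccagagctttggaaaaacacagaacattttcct

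The third set did not pass the age test. Chl1 intron 4 had the highest level of all intronic distal regions, and Runx1 intron 2 had the highest level among introns of HSC transcription factor genes and held SCL E-box and MEIS letters.
Chl1 intron 4 (chr6:103649124-103649274, plus strand): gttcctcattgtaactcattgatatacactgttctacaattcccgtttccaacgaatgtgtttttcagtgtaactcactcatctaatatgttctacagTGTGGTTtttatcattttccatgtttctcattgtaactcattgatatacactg
Runx1 intron 2 (chr16:92801707-92801857, plus strand): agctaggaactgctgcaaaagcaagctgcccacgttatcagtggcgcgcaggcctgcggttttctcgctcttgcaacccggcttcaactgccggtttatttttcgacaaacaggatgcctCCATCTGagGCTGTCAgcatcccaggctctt

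The 12 lists held between 35696 (young Mlkl-/- 3) and 61465 (aged Mlkl-/- 3) summits at a score of at least 3, and the young lists, at 35696 to 56329, were mostly shorter than the aged ones, at 47007 to 61465. No read counts were given, so the depth of a library is unknown. Each list was therefore reduced to its 35696 highest-scoring summits (an equal-length list). Every region called in at least 1 equal-length list was ranked within each library by its score, and the ranks were turned into normal scores, on which 0 is the middle of a library and the unit is 1 SD of a normal distribution. A region not called in a library took the floor of that library, between −0.825 and −0.745. Summits at the Y-linked genes Uty, Ddx3y, Kdm5d and Eif2s3y were present in 3 of 6 young and 0 of 6 aged libraries, and 9 libraries carried an unexplained tag in their names, and the Y-linked summits moved with age. Their part in the results was not tested beyond the fits given beside the age comparison. Of 10 HSC marker genes, the starts of 4 (Kit, Cd34, Fgd5 and Hlf) were called in all 12 deposited lists and Slamf1 in none. Among markers of other cells, the starts of Cd79a and Ms4a1 (B cells), Cd3e, Cd4 and Cd8a (T cells), Csf1r, Elane, Mpo and S100a8 (myeloid cells) and Klf1 and Alas2 (erythroid cells) were called in none of the 12 lists. Those of Pax5, Ebf1, Cd3d, Epor and Pdgfrb were called in all 12.

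Intronic distal regions were about as frequent as introns are in the genome. They made up 32.2% of all regions, against 33.8% of positions set every 5 kb along the same chromosomes, a ratio of 0.953. Regions near transcript starts made up 29.3% of regions against 6.11% of positions, and intergenic regions 1 to 50 kb from a start 26.4% against 35.4%. Within introns, the regions lay nearer to starts than the positions did. The median distance to the nearest transcript start was 9.95 kb, with a range from the 10th to the 90th percentile of 2.06 to 44.0 kb. Intron 1 held 33.1% of the regions and 27.4% of intronic positions, and 2.16% of regions and 6.43% of positions were more than 100 kb from a start. Introns that held a region had a median length of 22.3 kb, against 29.0 kb for the positions.

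The sequence of the regions was richer in G and C than intronic DNA in general. The median GC content over 201 bases was 49.8% for the regions and 42.3% for intronic positions, and 62.2% for regions near starts. Repeats, read from the soft-masked letters of the reference, covered more than 50% of the 201 bases in 4.65% of the regions and in 22.1% of positions. Of the 22841 regions, 2 shared any 25-base word with the mitochondrial genome, and neither was among the regions changed with age.

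Most of the regions were called in some libraries only. In the deposited lists, 3877 regions (17.0%) were called in all 12 libraries and 4776 (20.9%) in 1 library, whereas regions near starts were called in all 12 in 55.6% of cases and in 1 in 8.75%. The same shares for intergenic regions 1 to 50 kb from a start were 18.3% and 20.01%. In the equal-length lists 2675 intronic distal regions were called in all 12 libraries, 7313 in none and 5403 in 1 or 2. The remaining 10125 (44.3%), called in at least 3, were tested, so every statement on changes concerns these and not all members.

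**Figure D1:**
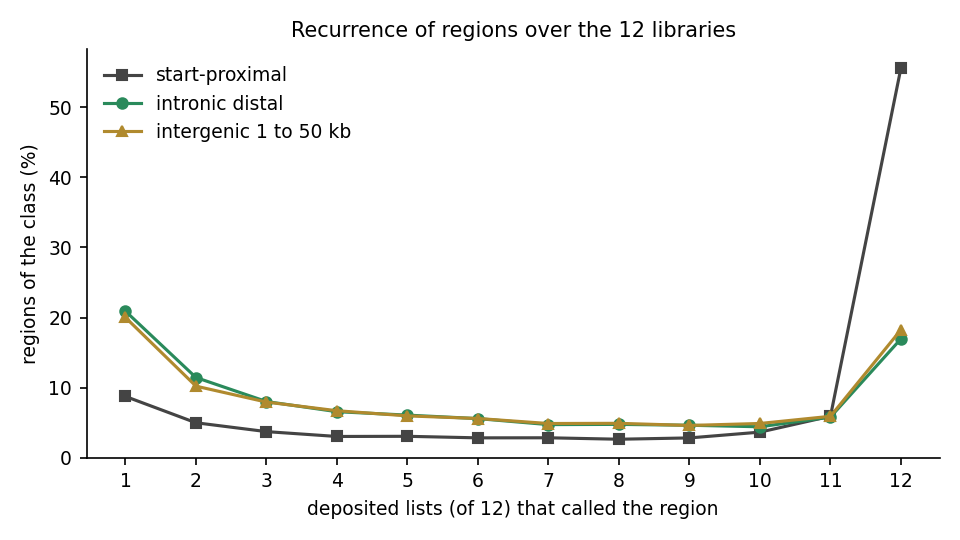
Percentage of the regions of a class (vertical axis) against the number of the 12 deposited lists in which they were called (horizontal axis), for regions near starts, intronic distal regions and intergenic regions 1 to 50 kb from a start. Intronic distal regions peaked at both ends, with 20.9% in 1 list and 17.0% in all 12, and ran beside the intergenic regions.

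The regions lay in 7548 of the 21755 protein-coding genes. Among these, 3371 genes held 1 region, 1381 held at least 5 and 47 held at least 20. A gene called Gm20388 led with 110 regions, but its annotation spans 4435 kb and contains other genes, and Fgfr2, with 30, is annotated over 2961 kb. The other 8 genes with most regions were Pde4d (50 regions), which encodes a cAMP phosphodiesterase, Nav2 (42), Arhgap26 (34), Gse1 (34), Arid1b (30), a subunit of BAF chromatin remodelling complexes, Hivep3 (29), Prkce (29), a protein kinase C, and Zfhx3 (29). Per 100 kb of gene, Gse1 was densest among the 10 with 9.63 regions, followed by Arid1b with 8.49, and Gm20388 had 2.48. Of the tested regions in these 10 genes, 2 of 16 in Arhgap26 and 1 of 23 in Nav2 were higher with age, and none of the others passed.

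The 10 regions of highest level did not pass the age test. The normal score is a rank, so a region near the top of every list has little room to rise, and the missing call says nothing about how stable its signal was. Chl1 intron 4, in a gene for a neural cell adhesion molecule, had a mean normal score of 3.81 ± 0.024 (SD, n = 12), with deposited scores of 183 to 207 in young and 191 to 207 in aged libraries, and was 31.3% repeat. Filip1l intron 1 followed at 3.50 ± 0.055. 2210408I21Rik intron 19, which held IRF letters at 2 places and was 65.7% repeat, reached 3.10 ± 0.29. The next were Cdk8, whose product is a kinase of the Mediator complex, at 2.92 ± 0.35, Lrmda at 2.88 ± 0.22, Slc4a4 at 2.83 ± 0.35, Arhgdib at 2.82 ± 0.29, Sox5 at 2.80 ± 0.41, Dlgap1 at 2.75 ± 0.27 and Cdk5rap2, 53.7% of it repeat, at 2.74 ± 0.47. The part of repeats, or of sequence present in several copies of the genome, in these levels was not tested. The levels are therefore not shown to be those of open chromatin at these introns. The lowest adjusted p among them was that of Cdk5rap2 intron 4, 0.024, with a change of −0.69 ± 0.19 (SE).

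The share of summits in intronic distal regions did not separate the groups. In equal-length lists it averaged 20.6% ± 0.23 (SD, n = 3) for young WT and 21.4% ± 2.1 for young Mlkl-/- libraries. The aged means were 21.1% ± 1.8 for WT and 22.3% ± 0.39 for Mlkl-/-. The age difference was 0.720 percentage points (exact two-sided permutation test within genotypes, 400 labellings, p = 0.40), and the genotype difference was 0.990 points (p = 0.21 in the same exact test within ages). The smallest p these labellings allow is 0.005. The spread within young Mlkl-/- and aged WT was larger than either difference. Without young Mlkl-/- replicate 3, which had the shortest list, the age difference was 0.17 points and the genotype difference was 1.54 points (exact permutation test, p = 0.035).

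Which intronic regions were called differed between young and aged libraries, in tests that held no term for list length or Y-linked summits. The median distance of the called regions to the nearest start was 9.41 to 9.85 kb in the 6 young and 10.1 to 10.4 kb in the 6 aged libraries, so that the groups did not overlap. The difference was 0.620 kb (exact permutation test, p = 0.005, adjusted over 6 such features 0.015). Mean GC content was 50.8% ± 0.20 in young and 50.3% ± 0.22 in aged libraries, a difference of −0.50 points (exact permutation test, adjusted p = 0.015), and the ranges overlapped between 50.59% and 50.65%. The repeat content of called regions was 10.5% at both ages (exact permutation test, p = 0.995). The share of called regions on chromosome X was 1.54% ± 0.092 in young and 1.71% ± 0.13 in aged libraries (exact permutation test, p = 0.025, adjusted p = 0.05).

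**Figure D2:**
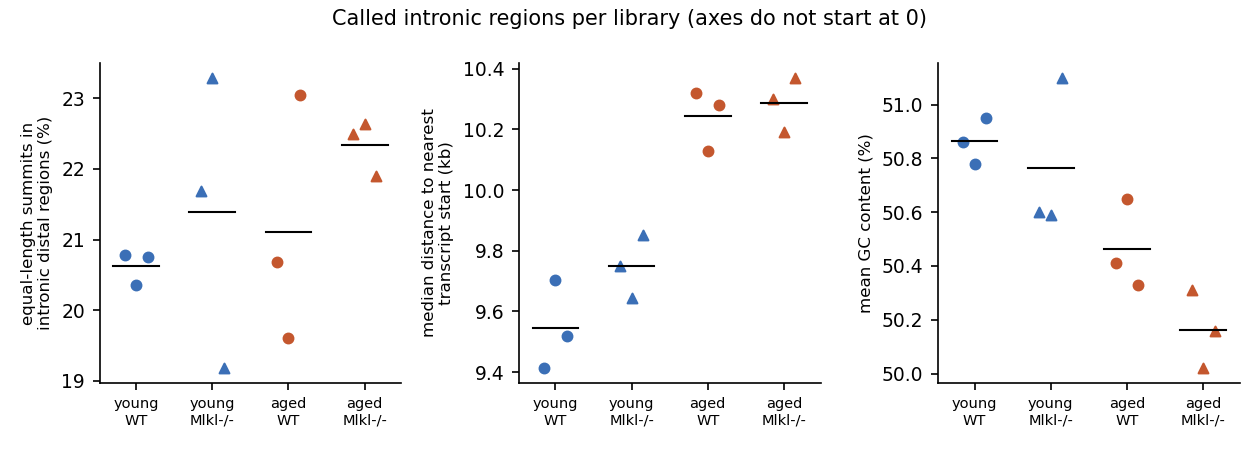
Measures of the intronic distal regions in each of the 12 libraries: the percentage of equal-length summits in them, the median distance of called regions to the nearest transcript start in kb, and their mean GC content in percent. Points are libraries and lines are means of the 3 libraries of a group, and no axis starts at 0. Distances were above 10 kb in all 6 aged libraries and below 10 kb in all 6 young ones.

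The age comparison asked which regions differed between young and aged HSCs over both genotypes. Of the 10125 tested intronic distal regions, 505 (4.99%) passed an adjusted p of 0.01, with 306 higher and 199 lower in aged HSCs. Over all 37861 tested regions of the series, 3.26% passed, 2.02% higher and 1.24% lower. The share was 1.04% for regions near starts, 4.02% for exonic and 4.12% for intergenic regions 1 to 50 kb from a start. It was 5.05% for regions inside genes that are not protein-coding and 7.86% for intergenic regions beyond 50 kb. Differences between these shares were not tested. Normal scores were compared with limma in 1 fit of the 4 groups, with Benjamini-Hochberg adjustment over all tested regions, and a change is the aged minus the young mean. Because a library that did not call a region took the floor, a change in such a region depends on the floor and is not a fold change.

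**Figure D3:**
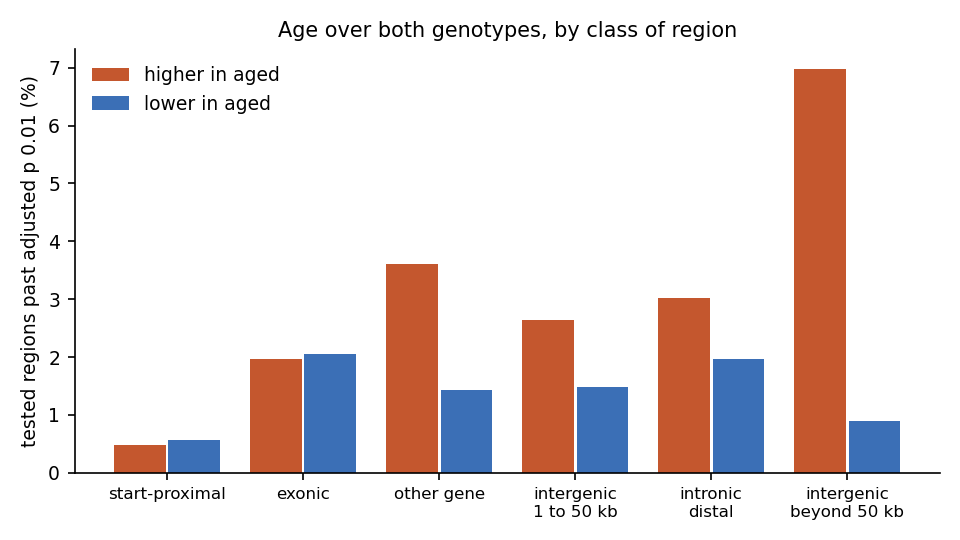
Percentage of tested regions of each class (vertical axis, from 0) that were higher (orange bars) or lower (blue bars) in aged than in young HSCs at an adjusted p under 0.01 over both genotypes. For intronic distal regions the bars were 3.02% higher and 1.97% lower, and for regions near starts 0.473% and 0.565%.

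All 505 regions kept their direction in each of 7 other fits. They were chosen for a change in these same libraries, so the kept direction is no independent support. The number that passed varied between the fits. It was 60 with list length as a term of the model, 56 of them among the 505, and 159 with the presence of Y-linked summits as a term. Leaving out 1 library at a time gave 296 to 466, and the count fell by more than 1.5 times without young WT replicate 2 (311), young Mlkl-/- replicate 1 (333), aged WT replicate 1 (328), aged Mlkl-/- replicate 1 (296) or aged Mlkl-/- replicate 2 (315). List length and age cannot be fully told apart, since most young lists were the shorter ones.

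Values of 385 of the 505 regions did not overlap between the 6 young and the 6 aged libraries, and neither did those of 184 of the 9620 that did not pass. Among the 306 higher regions, 119 were called in no young equal-length list, and 60 of them in no young deposited list either. Among the 199 lower regions, 56 were called in no aged equal-length list and 4 of them in no aged deposited list. Most of the lower regions were thus still called in aged deposited lists, at lower scores. The 119 higher regions entered the test through calls in aged libraries alone, and the 56 lower ones through calls in young libraries alone. At the age without calls all their values were floors, so the small spread there is set by the floors. Where every library of the other age called such a region, its lack of overlap follows from the floors as well. Among the 9620 regions that did not pass, 549 were also called in no young equal-length list and 496 in no aged one. The median change was 1.14 for the higher and −1.10 for the lower regions. Of the 2675 regions called in all 12 equal-length lists, 60 were higher and 46 lower.

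The called regions lay in 477 host genes, and 26 of these held at least 2. Nav3, which encodes a neuron navigator protein, and Ryr2, a calcium release channel, each held 3, all higher. In 17 of the 26 genes all calls were higher, in 5 all lower, and in 4 (Ccnjl, Ccser1, Nfib and Tenm4) 1 was higher and 1 lower. Prim2, a subunit of DNA primase, held 2 higher regions among 3 tested, and Ptprk, a receptor-type tyrosine phosphatase, 2 among 8.

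More of the tested regions far from a start were higher with age, and the differences along the distance were not tested. Within 1 to 5 kb of a start 2.19% of tested intronic distal regions were higher and 2.26% lower, and at 5 to 20 kb 2.86% were higher and 1.79% lower. Beyond 50 kb 5.34% were higher and 1.65% lower. The median distance was 13.8 kb for the higher, 8.68 kb for the lower and 9.98 kb for the regions that did not pass. Intron 1 (5.02%) and other introns (4.97%) stood close to each other in their share of calls. The median GC content was 46.5% in the higher and 50.3% in the lower regions. On chromosome X, 4 of 167 tested regions were higher and 1 lower, and on the autosomes 302 of 9958 were higher and 198 lower.

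The largest increases and decreases described next were picked among regions whose young and aged values did not overlap. Their lack of overlap follows from that choice. Prim2 intron 7 (chr1:33624410-33625369) had the largest change. It was called in no young library even in the deposited lists, and its deposited scores were 26.3, 22.6 and 30.5 in aged WT and 29.3, 27.2 and 33.5 in aged Mlkl-/- libraries. The change in normal score was 1.96 ± 0.20 (SE, adjusted p = 3.43e-06). Both genotypes gave nearly the same change, 1.92 in WT and 2.01 in Mlkl-/-.

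Ros1 intron 17 (chr10:52133346-52133917), in a receptor tyrosine kinase gene, was called in all 12 libraries. Its deposited scores had a lowest value of 3.55, a median of 10.4 and a highest of 13.7 in young libraries, and of 39.1, 50.8 and 71.3 in aged ones. The change was 1.85 ± 0.17 (adjusted p = 8.01e-07). Unlike Prim2, this region rose from a measured level and not from the floor.

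Msi2 intron 5 (chr11:88686949-88687500) lies in the gene for Musashi-2, an RNA-binding protein that supports HSC self-renewal. It was called in 2 of 6 young deposited lists, with a highest score of 6.98, and in all 6 aged lists at 13.7 to 35.6 with a median of 23.6. The change was 1.81 ± 0.21 (adjusted p = 1.8e-05).

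Of the other 7 of the 10 largest increases without overlap, Lama2 intron 13, in a laminin subunit gene, changed by 1.80 ± 0.22. It had 1 young library at 12.3 against 21.5 to 42.3 in aged libraries. Changes were 1.77 for 1700017D01Rik intron 4, 1.71 for Sumf1 intron 3, 1.68 for Kcnb2 intron 1, 1.66 for Ryr2 intron 80, 1.65 for D3Ertd751e intron 5 and 1.63 for Tacr1 intron 2. Adjusted p was between 1.17e-05 and 0.00016 for these 7, and all 6 aged libraries called each of them. D3Ertd751e was called in no young deposited list, and the others in 1 to 5 of them, at lower scores than in any aged library. Kcnb2 encodes a potassium channel and Tacr1 a tachykinin receptor, both known from neurons.

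**Figure D4:**
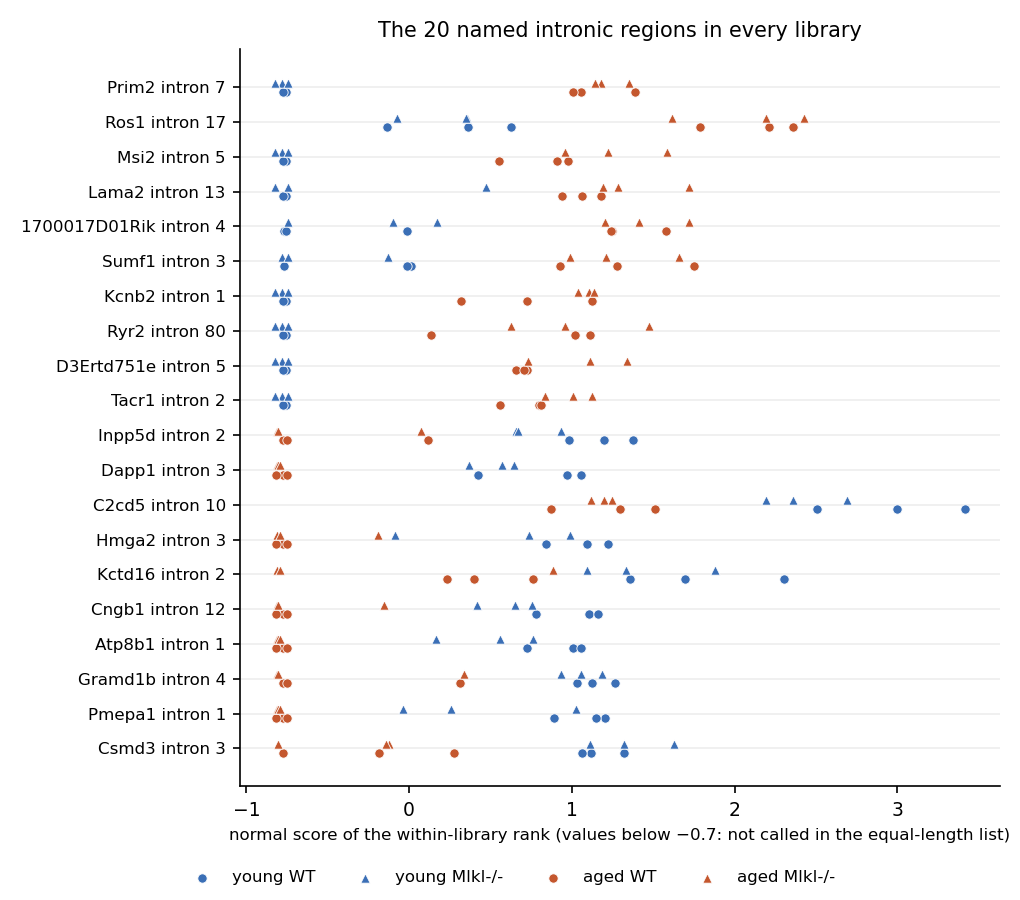
Normal scores (horizontal axis) of the 10 higher and 10 lower intronic regions with the largest age change among those without overlap, 1 row per region and 1 point per library. Blue is young and orange aged, circles are WT and triangles Mlkl-/-, and points below −0.7 are libraries in which the equal-length list did not call the region. C2cd5 intron 10 fell within the called range, between 2.19 and 3.42 in young and 0.875 and 1.51 in aged libraries. Its sequence is a short unit repeated end to end, and the part of that repeat in the fall was not tested.

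Among the decreases, C2cd5 intron 10 (chr6:143057083-143057874), in a gene for a C2-domain protein of vesicle transport, fell from a high level. Its deposited scores were 38.2, 58.0 and 94.2 (lowest, median and highest) in young and 20.2, 29.5 and 37.7 in aged libraries. The change was −1.49 ± 0.16 (adjusted p = 5.83e-06). This region was called in all 12 equal-length lists. The sequence printed above for it is a short unit repeated end to end, although its soft-masked repeat content was 0%. The part of this repeat in the level and in the fall was not tested. The fall is therefore not shown to be one of open chromatin at this intron.

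Hmga2 intron 3 (chr10:120421887-120422510) lies in the gene of a chromatin protein known for self-renewal of fetal and young HSCs. Scores were 24.9, 17.3 and 19.9 in young WT and 21.6, 8.75 and 11.5 in young Mlkl-/- libraries. In aged WT they were 7.51, not called and 7.18, and in aged Mlkl-/- 5.03, 6.06 and 8.38. Every young score was above every aged one, the margin being 8.75 against 8.38. The change in normal score was −1.49 ± 0.24 (adjusted p = 0.000436, and 0.0484 with list length as a covariate).

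Csmd3 intron 3, which was 60.2% repeat, had the largest decrease, −1.55 ± 0.20 (adjusted p = 6.05e-05), with young scores of 19.2 to 36.0 and aged scores up to 10.1. Pmepa1 intron 1, in a gene for an inhibitor of TGF-beta signalling, changed by −1.54 ± 0.23 and was called in all 6 young and 3 aged deposited lists. Inpp5d intron 2, in the gene for the phosphatase SHIP1 that restrains signalling in blood cells, fell from a median score of 20.1 to 6.08, a change of −1.46 ± 0.23. The other 5 were Gramd1b intron 4 (−1.51), Cngb1 intron 12 (−1.50), Kctd16 intron 2 (−1.50), Atp8b1 intron 1 (−1.50) and Dapp1 intron 3 (−1.47), the last in a gene for an adaptor protein of B cell receptor signalling. Adjusted p for these 8 was between 6.05e-05 and 0.000456. With list length as a covariate Dapp1 (0.0202) and Kctd16 (0.0825) no longer passed, nor did Ryr2 (0.0164) among the increases, and with Y-linked summits Pmepa1 (0.0108) did not.

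Regions in introns of HSC transcription factor genes numbered 299, in 35 of 38 listed genes. Of the 131 tested, 1 was higher and 2 were lower, 2.29%, against 4.99% of all tested intronic distal regions, and their median change was −0.09 against 0.02. Runx1 intron 5 (chr16:92644536-92645160), in the gene of a master regulator of blood formation, had scores up to 6.53 in young and of 10.2 to 17.1 in aged libraries. Its change was 1.20 ± 0.23 (adjusted p = 0.00171), and the groups did not overlap. The call was lost under 4 of 23 other settings, with lists of unequal length (adjusted p = 0.0242), list length as a covariate (0.026), Y-linked summits as a covariate (0.0195) and the tagged libraries alone (0.019). The other 6 tested regions of Runx1 did not pass, among them intron 2 with median scores of 54.8 in young and 63.1 in aged libraries.

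Foxp1 intron 2 (chr6:99241524-99242111) and Nfia intron 7 (chr4:98056542-98057136) were the decreases on this list. Foxp1, a forkhead factor of lymphoid development, had young scores of 5.61 to 19.7 and was called in 2 of 6 aged lists, at 5.36 and 5.85, so that 1 young score lay within the aged range. In the equal-length lists it was called in all 6 young and 0 aged libraries, and its change was −1.36 ± 0.22 (adjusted p = 0.000476). Nfia, a nuclear factor I gene, changed by −1.21 ± 0.23 (adjusted p = 0.00199), from a median score of 10.8 to 5.90. With Y-linked summits as a covariate neither passed (adjusted p = 0.0114 for Foxp1 and 0.0328 for Nfia), and with list length Nfia did not (0.0214).

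On the list of receptors and kinases, with 122 regions and 66 tested, 3 were lower and 0 higher, 4.55% against 4.99% of all tested intronic distal regions. Tgfbr2 intron 1, in a receptor gene of the TGF-beta pathway, fell from a median score of 26.1 to 12.5, a change of −1.10 ± 0.21 (adjusted p = 0.00162), but missed the threshold under 3 of 23 other settings, among them list length as a covariate (0.0622). Jak1 intron 10, in a cytokine receptor kinase gene, changed by −0.88 ± 0.20 (adjusted p = 0.00699). Flt3 intron 9, in the gene of a receptor of multipotent and lymphoid progenitors, changed by −0.69 ± 0.16, with an adjusted p of 0.00997 that was just under 0.01. Under 18 of 23 other settings Flt3 no longer passed, and Jak1 did not under 15 of 23. The highest level on this list was in Insr intron 2, with a mean normal score of 2.12 and an age change of 0.07.

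Among 64 regions of genes listed for HSC ageing, 28 were tested and 2 were higher, both in Ptprk. That is 7.14% against 4.99% of all tested intronic distal regions, from 1 gene. The intron 1 region (chr10:28104997-28105754) was called in no young deposited list and scored 10.5 to 26.5 in aged libraries, a change of 1.60 ± 0.22 (adjusted p = 9.07e-05). The intron 13 region (chr10:28518228-28518810) changed by 1.24 ± 0.24 (adjusted p = 0.00198) and missed the threshold under 3 of 23 other settings, with adjusted p between 0.0185 and 0.0251. Both were called in all 6 aged libraries. Selp intron 8, in the P-selectin gene, had the highest level on this list, with median scores of 45.5 in young and 42.5 in aged libraries and a change of −0.17 ± 0.14.

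Chromatin regulator genes held 90 regions with 39 tested, and 1 was higher, 2.56% against 4.99% of all tested intronic distal regions. That was Ezh1 intron 1, in the gene of a Polycomb methyltransferase, with median scores of 4.85 in young and 22.9 in aged libraries and a change of 1.40 ± 0.23 (adjusted p = 0.000454, and 0.0209 with list length as a covariate). Dnmt3a intron 3, in a DNA methyltransferase gene, had the highest level on this list, with young scores of 37.7 to 43.6 and aged scores of 18.5 to 45.0. Its change was −0.55 ± 0.14, with an adjusted p of 0.0142 that missed the threshold.

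The remaining lists gave 0 regions past the threshold. Adhesion and niche genes had 32 tested of 79, megakaryocyte and platelet genes 10 of 21 and inflammation genes 8 of 29. The share over all tested intronic distal regions was 4.99%, and these lists are short. Their median changes were −0.03, −0.16 and −0.36, against 0.02 over all tested intronic distal regions. Plek intron 9, in the gene of a platelet protein kinase C substrate, had median scores of 27.8 in young and 38.5 in aged libraries (change 0.27 ± 0.18), and Nfkb1 intron 17 had 30.1 and 33.6 (change −0.14 ± 0.14). Mlkl itself held no intronic distal region. Of 6 necroptosis genes 1 held any, a region in intron 10 of Ripk1, the kinase upstream in the pathway. No young deposited list called it and 5 of the 6 aged ones did, at scores of 4.93 to 10.4, but in 2 equal-length lists only, and was therefore not tested.

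Within WT alone, 44 intronic distal regions passed the age test, 29 higher and 15 lower. The background over all tested regions was 0.298%, with 0.219% higher and 0.0792% lower. The count was not stable. It was 3 with list length as a covariate, 20 with the replicate number as a block and 0 when the 2 groups were fitted apart. It was 13, 16 and 14 without young WT replicate 1, 2 or 3, and 3, 12 and 7 without aged WT replicate 1, 2 or 3. Leaving out a library of the other genotype, which enters through the shared spread, gave 27 without young Mlkl-/- replicate 1, 21 without aged Mlkl-/- replicate 1 and 25 without aged Mlkl-/- replicate 2. The largest increases without overlap were in Npas3 intron 2 (1.97 ± 0.24, adjusted p = 0.000242), Prim2 intron 7 (1.92) and Fsip1 intron 10 (1.89 ± 0.27). Npas3 scored 4.27, 7.49 and 5.81 in young WT and 46.5, 44.9 and 35.2 in aged WT libraries. Decreases were led by Spred2 intron 1, in a gene for an inhibitor of Ras signalling, which changed by −1.99 ± 0.27 (adjusted p = 0.00072), from scores of 20.4 to 26.8 down to 5.37 to 6.09. Pmepa1 intron 1 (−1.86) and Hmga2 intron 3 (−1.83) followed.

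Within Mlkl-/- alone, 37 regions passed, 34 higher and 3 lower. The background was 0.312%, with 0.285% higher and 0.0264% lower. This count moved as much. It was 7 with list length as a covariate, 13 with the replicate block and 0 in a separate fit. It was 10, 14 and 13 without young Mlkl-/- replicate 1, 2 or 3, and 5, 4 and 5 without aged Mlkl-/- replicate 1, 2 or 3. Without aged WT replicate 1 or 2 it was 13 or 22. Msi2 intron 5 (2.04 ± 0.30, adjusted p = 0.0013), Prim2 intron 7 (2.01) and Kcnb2 intron 1 (1.88) had the largest increases without overlap. The 3 decreases were in Csmd3 intron 3 (−1.71), Prex1 intron 6 (−1.44) and C2cd5 intron 10 (−1.23). The C2cd5 region is the one whose sequence is a short unit repeated end to end. Prex1, which encodes an activator of the GTPase Rac, scored 17.0 to 33.6 in young Mlkl-/- and 5.25 to 14.8 in aged Mlkl-/- libraries, and its change in WT was −0.74 ± 0.28 (adjusted p = 0.179).

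In total 11 regions passed in both genotypes. All 44 that passed in WT had the same sign in Mlkl-/-, and all 37 that passed in Mlkl-/- had the same sign in WT. Of the 9620 regions that did not pass over both genotypes, 6410 also had the same sign in both. The 29 regions higher in WT had a median change of 1.58 in WT and 1.09 in Mlkl-/-, and the 15 lower had −1.75 and −0.85. The 34 regions higher in Mlkl-/- had medians of 1.69 in Mlkl-/- and 1.40 in WT. The genotype in which a region was chosen has the larger median by that choice.

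No intronic distal region passed the threshold between genotypes. With 3 pools per group this does not show that none differed. Over both ages, at 3 months, at 18 months, and for the difference in age change between genotypes, limma called 0 of 10125 regions, and the background over all tested regions was 0% in each. Taken in that order, 697, 669, 537 and 532 regions had an unadjusted p below 0.05, and the lowest adjusted p was 0.774, 0.625, 0.792 and 0.979.

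Values of the regions with the lowest unadjusted p are given as ones that did not pass. Mid1 intron 9, in a ubiquitin ligase gene on chromosome X, had scores of 38.8, 35.7 and 27.4 in young WT and 10.8, 19.4 and 12.6 in young Mlkl-/- libraries. In aged WT they were 16.4, 41.0 and 25.5, and in aged Mlkl-/- 13.2, 7.68 and 20.7. The young groups did not overlap and the aged groups did. The Mlkl-/- minus WT change over both ages was −0.91 ± 0.18 (adjusted p = 0.774). Bicral intron 1 (−1.05 ± 0.23) and Mras intron 1 (0.56 ± 0.14) had the same adjusted p.

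At 3 months the lowest unadjusted p belonged to Ankrd44 intron 1 (−1.31 ± 0.28), Adamts17 intron 19 (−1.27) and Ago2 intron 1 (−1.29), all with an adjusted p of 0.625. At 18 months they belonged to Ccnk intron 6 (1.32 ± 0.28), Rassf2 intron 1 (1.20) and Myo3b intron 7 (1.25), with an adjusted p of 0.792. Ccnk encodes a cyclin that pairs with kinases of transcription elongation, and its region was called in 0 of 6 young lists, at 4.82 and 6.51 in 2 aged WT and at 13.3 to 19.5 in all 3 aged Mlkl-/- libraries. For the difference in age change the lowest unadjusted p were in Mgll intron 3 (1.18 ± 0.30), Bcas1 intron 11 (−1.66) and Scrn1 intron 1 (1.77), with an adjusted p of 0.979.

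ETS, RUNX and AP-1 letters were the most frequent among the members. Within 100 bp of the position, 19.7% of the 22841 regions held the ETS letters, 13.3% the RUNX letters and 12.3% the AP-1 letters, whereas intronic positions every 5 kb held them in 4.83%, 4.97% and 6.07%. Over all 70945 regions the shares were 16.1%, 10.3% and 10.2%. A region could hold several motifs, and 590 held both RUNX and ETS letters. A match is a run of letters and not a binding site.

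Regions called in all 12 equal-length lists held ETS letters in 26.5% and RUNX letters in 17.1% of cases, against 17.5% and 10.9% of regions called in 1 deposited list. SP/KLF letters, a GC-rich motif of promoters, were in 3.50% of the members and in 29.1% of regions near starts. C/EBP letters, known from myeloid differentiation, were in 1.81% of the members and in 2.13% of intronic positions.

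Within each library the called intronic distal regions differed from the other classes. Called summits of intronic distal regions had a median rank at the 41.2 percentile of their list, against 58.8 for regions near starts, and were lower in 12 of 12 libraries (exact two-sided sign-flip permutation test over libraries, p = 0.000488, the smallest it can give, adjusted over 24 such tests 0.000651). The libraries share most regions, so these tests measure the stability over libraries only. Against intergenic regions 1 to 50 kb from a start the median percentile was 41.2 and 41.4, lower in 9 of 12 libraries (exact sign-flip permutation test, p = 0.43).

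ETS letters were in 22.9% of called intronic distal regions on average, in 20.1% of intergenic regions 1 to 50 kb from a start and in 8.70% of regions near starts. RUNX letters were in 15.5%, 14.4% and 4.02%. Both were more frequent in intronic regions in 12 of 12 libraries against either class. CTCF letters (5.35% and 6.54%), SP/KLF letters (4.51% and 6.64%) and C/EBP letters (1.74% and 2.13%) were less frequent in intronic than in intergenic regions in 12 of 12 libraries, and each of these differences had an adjusted p of 0.000651 in the exact sign-flip permutation test. AP-1 letters did not separate intronic (13.9%) from intergenic regions (14.0%), with an intronic share lower in 8 of 12 libraries (exact sign-flip permutation test, p = 0.44).

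Motif shares of the called intronic distal regions moved with age for 6 of 11 motifs at an adjusted p under 0.05. MEIS letters, those of homeodomain partners of HOX proteins in HSCs, were in 4.50% ± 0.093 (SD, n = 6) of called regions in young and 4.0% ± 0.062 in aged libraries. Young libraries ranged from 4.37% to 4.59% and aged ones from 3.92% to 4.08%, without overlap. SCL E-box letters fell from 5.93% ± 0.079 to 5.46% ± 0.12, also without overlap, and ETS letters from 23.5% ± 0.63 to 22.3% ± 0.59, with overlap.

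C/EBP letters rose from 1.60% ± 0.10 to 1.87% ± 0.037, with 1.48% to 1.72% in young and 1.82% to 1.92% in aged libraries. IRF letters, those of interferon regulatory factors, rose from 2.15% ± 0.12 to 2.40% ± 0.053, and the highest young share, 2.308%, was just above the lowest aged one, 2.307%. NF-kB letters fell from 0.795% ± 0.069 to 0.674% ± 0.063, and the groups overlapped. The adjusted p was 0.011 for MEIS, SCL E-box, C/EBP, IRF and NF-kB and 0.0275 for ETS (exact two-sided permutation test within genotypes, adjusted over 11 motifs). In the same test with motifs searched within 50 bp, ETS and SCL E-box letters did not pass (adjusted p = 0.11 each). NF-kB letters did not at a minimum score of 5 (0.11), nor ETS letters without young Mlkl-/- replicate 1 (0.055). The test held no term for list length or Y-linked summits. In the 9 libraries with the tag alone 0 of 11 passed the same permutation test. Their 60 labellings allow no p under 0.0167. Had 6 motifs reached it, their adjusted p would be 0.0306, so a pass under 0.05 was possible. The lowest adjusted p there was 0.0524, and all 6 differences had the same sign as over 12 libraries, such as −0.515 points for MEIS letters.

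GATA letters were in 6.58% ± 0.34 of called regions in young and 6.01% ± 0.46 in aged libraries (exact permutation test, adjusted p = 0.055). RUNX letters were in 15.5% at both ages (exact permutation test, adjusted p = 0.975), AP-1 letters in 14.1% and 13.8%, CTCF letters in 5.44% and 5.26% and SP/KLF letters in 4.62% and 4.40%, none of which passed. For genotype no motif passed, and the lowest adjusted p was 0.399 (exact permutation test).

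**Figure D5:**
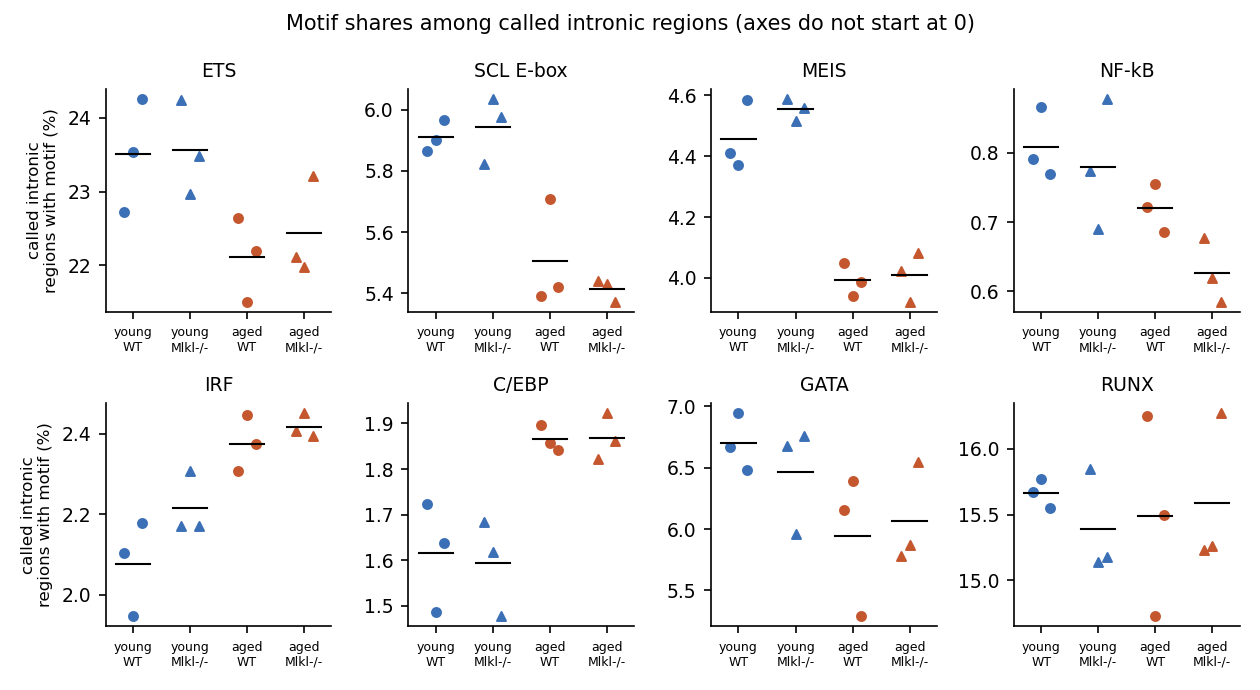
Percentage of the intronic distal regions called in a library (vertical axes) that held the letters of a motif within 100 bp of the position, 1 panel for each of 8 motifs, 1 point per library and a line at each group's mean, with axes that do not start at 0. MEIS and SCL E-box shares were lower and C/EBP shares higher in all 6 aged than in all 6 young libraries.

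The age difference of some motifs was larger in intronic than in intergenic regions 1 to 50 kb from a start. The intronic less intergenic age difference was −0.22 points for MEIS (exact permutation test, adjusted p = 0.0275), 0.28 points for IRF (adjusted p = 0.0275) and −0.31 points for GATA (adjusted p = 0.0367). For SCL E-box letters it was −0.015 points (adjusted p = 0.935). ETS, NF-kB and C/EBP letters did not pass this exact permutation test either (adjusted p = 0.681, 0.856 and 0.176). The age difference of GATA letters in intronic regions had itself not passed.

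Of the tested regions with MEIS letters, 8 of 430 were higher and 13 lower with age, 4.88% in all, against 4.99% of all tested intronic distal regions (3.02% higher and 1.97% lower). With SCL E-box letters 14 of 578 were higher and 19 lower, 5.71% in all. RUNX letters were held by 1551 tested regions, of which 59 were higher and 38 lower (6.25%), and CTCF letters by 556, of which 9 were higher and 3 lower (2.16%). These counts are a description, and none was tested.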

How the data were processed

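ATAC-seq libraries of sorted bone marrow HSCs were made from 4 groups of 3 pooled samples. Per the labels and methods, reads were sequenced on a NextSeq500 as single reads and aligned to mm10, with Bowtie2 2.5.3 and MACS2 2.2.7.1 named in the submitters' processing notes. The authors deposited 1 list of peak summits per library, called separately, with the −log10 of the q-value as score. The methods state a q-value cutoff of 0.001, but the deposited lists reach down to a score of 2.00, so summits under 3 were left out here. No read counts were used, so depth is unknown and no counting interval can be given.

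Regions, classes, equal-length lists and normal scores were made with Python 3.11.15, numpy 2.4.6, pandas 2.3.3, scipy 1.17.1 and pysam 0.24.0, using the full GENCODE M21 annotation. The host gene was the shortest protein-coding gene over the position. The 37861 regions called in at least 3 equal-length lists were tested with limma 3.58.1 (R 4.3.3) in 1 fit of 4 groups with 7 contrasts, a trended prior and Benjamini-Hochberg adjustment over all tested regions, at an adjusted p of 0.01. The code was tested on simulated data. Shares were tested by exact permutation within genotypes or ages. Since the samples are pools, p-values measure the spread between pools.

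Named regions were the 10 higher and 10 lower of largest age change without overlap between ages, 3 in each direction within a genotype, the 10 of highest level, the 10 genes with most regions, the 3 of lowest unadjusted p per genotype contrast, and regions of 8 gene lists that passed or had the highest level of their list. The members and lists were chosen with earlier results of these data known. Alternatives covered thresholds, list length, score, windows, distance, annotation, ranks, covariates, tagged libraries, a replicate block and leaving out each library. Some marker genes of other cell types are not reported here.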

Additional observations from a re-analysis of the deposited data

Results flagged for a closer look

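Of 36 sets of 6 libraries examined, 5 had a library that stood apart from the others of its age by a gap test at the 95% level, and chance flags about 1 in 20. Young Mlkl-/- 3, the library with the shortest list, had the lowest repeat content of called intronic distal regions among young libraries, 10.18%, and the lowest mean level of the regions called in all 12 lists, a normal score of 0.8774. Aged WT 2 had the lowest such level among aged libraries, 0.8985, and the highest share of SCL E-box letters, 5.709%. Young Mlkl-/- 2 had the highest share of CTCF letters among young libraries, 6.322%. Outside the chromosomes compared, young Mlkl-/- 1 had 5 summits at Uty, Ddx3y, Kdm5d and Eif2s3y, against 2 in young WT 1, 2 in young Mlkl-/- 2 and 0 in the other 9 libraries. No cause was tested for any of these values.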

How the results depend on the processing

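The count of intronic distal regions changed with age over both genotypes, 505, was 1203 at an adjusted p of 0.05, 782 with lists of unequal length, 60 with list length as a covariate, 159 with Y-linked summits as a covariate and 149 in the tagged libraries alone, and 296 to 466 when 1 library was left out. In WT the count of 44 became 282, 107, 3, 22 and 5 under these settings, 27 at a minimum score of 5, 68 for regions called in at least 6 lists, 5 with percentiles of ranks, 26 with the tag as a covariate and 0 in a separate fit of the 2 groups, and 3 to 62 without 1 library. In Mlkl-/- the count of 37 became 267, 91, 7, 5 and 2, 57 for regions called in at least 1 list, 3 with percentiles and 0 in a separate fit, and 4 to 36 without 1 library. The cause was not tested. With the replicate number as a block 376 regions passed over both genotypes, 20 within WT and 13 within Mlkl-/-. Same-numbered libraries correlated between −0.22 and 0.104, so the numbers do not pair the samples. The genotype contrasts gave 0 under every setting run. The genotype difference in intronic share ran from 0.513 to 1.54 points without 1 library, passing 0.05 only without young Mlkl-/- replicate 3. The count of 6 motifs was 0 in the tagged libraries. There the permutation test allows a smallest p of 0.0167, or 0.0306 after adjustment if 6 motifs reach it. The age difference of RUNX letters, 0.0104 points, was −0.619 with unequal lists, −0.000761 at a minimum score of 5, −0.0303 beyond 2 kb and −0.179 to 0.202 without 1 library. That of CTCF letters, −0.177, ran from −0.273 to 0.00119. Of the 29 named age regions, 18 passed with list length, 22 with Y-linked summits and 24 in the tagged libraries. None changed sign, but they were chosen for their change in these same libraries. The covariates for Y-linked summits and the tag, and the basic annotation, were chosen after seeing the data. A planned covariate for any summit on chromosome Y was not run, since all 12 lists hold such summits, and separate fits were not run for contrasts of all 4 groups. Without read counts, a region not called cannot be told apart from one of low signal.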
